A study of Mus musculus with 4 samples.

Results

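The 32 genes described here encode the T cell receptor complex and its co-receptors, other T cell surface molecules, T cell signalling proteins and transcription factors, natural killer (NK) cell receptors, cytotoxic effectors and the T-box factors of cytotoxic lymphocytes. They were taken by name from the list of gene names in the scanner files, each through its brightest probe by the mean over 4 arrays, and all 32 were among the 27825 genes named there. The RNA came from B220 B cells freshly isolated from naive mice, so these are genes of other lymphocytes measured in a B cell isolate. The 4 groups were bone marrow of mice labelled Mef2c KO, bone marrow of C57BL/6 mice (wild type, WT), spleen of mice labelled Mef2c KO and spleen of C57BL/6 mice, each with 1 Agilent 1-colour array. What limits the groups as a model is that the deleted part of Mef2c, any Cre or promoter, the number of animals behind an array, their age and the way B220 cells were isolated are not given by the labels.

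In T cells, the receptor chains that bind antigen carry no signalling parts of their own and depend on the CD3 chains and the zeta chain, whose tails the kinase Lck phosphorylates so that the kinase ZAP-70 can dock and the adaptor LAT can pass the signal on. NK cells instead read a balance of activating and inhibitory receptors, and both they and CD8 T cells kill with perforin and granzymes under the T-box factors Eomes and T-bet. The B220 form of CD45 marks the B lineage in mice, but it is also found on plasmacytoid dendritic cells and on some activated T cells and NK cells, and several of these genes, among them Cd2 in the mouse, are transcribed in B cells too.

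Probes that cross an intron report spliced RNA, and the following are shown because they carry the receptor tail itself (Cd3d, Cd247), belong to the gene at least 2-fold higher on KO in both tissues (Cd3g) or gave another answer than the brightest probe of their gene (Cd247, Thy1, Cd6). A probe was taken to cross an intron when its placement on the genome spans more than its 60 bases. Each is printed 5′ to 3′ in the sense of the transcript, with its place on mouse build mm9, and capitals mark the tyrosine codons of the paired activation motif that Lck phosphorylates.
Cd3d, chr9:44794171-44794402, plus strand: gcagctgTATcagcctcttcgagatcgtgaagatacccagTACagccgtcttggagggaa
Cd247, chr1:167786567-167787585, plus strand: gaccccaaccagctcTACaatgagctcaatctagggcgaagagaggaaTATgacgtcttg
Cd3g, chr9:44781716-44782300, minus strand: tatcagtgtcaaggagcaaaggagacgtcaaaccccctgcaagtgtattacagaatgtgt
Thy1, chr9:43854991-43855436, plus strand: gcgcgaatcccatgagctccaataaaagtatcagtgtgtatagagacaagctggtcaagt
Cd6, chr19:10867422-10868678, minus strand: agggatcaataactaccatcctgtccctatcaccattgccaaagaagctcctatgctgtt
The motif searched, the immunoreceptor tyrosine-based activation motif, was read as a tyrosine codon, 6 further bases and a leucine or isoleucine codon, present as a pair whose tyrosine codons start 30 to 48 bases apart in 1 open frame. Of the 50 probes for these genes 2 held it, those of Cd3d and Cd247 above, against 47 of all 41174 probes of 60 bases (0.114%), and 39 (0.0947%) on the other strand. The Cd3d probe is the only one for its gene, and the Cd3g probe likewise.

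The 75th percentile of the signal over gene spots was 524 on spleen KO, where the remaining arrays had 966 to 1012, and gene spots well above background made up 59.3% there and 69.1% to 71.98% elsewhere, so spleen KO stood apart. Levels below are log2 signals minus that percentile of the array, and differences are log2 values between 2 arrays. Repeated spots of a probe had a median SD between 0.0981 and 0.139 on the log2 scale, and at the upper end of that range the difference between 2 single spots has an SD of 0.197. This covers the spotting of 1 array only, so no difference between 2 arrays has a replicate check, and their number limits the precision. Both marrow arrays were on slide 1 and both spleen arrays on slide 2, KO always at position 1 and WT at position 2, so tissue and slide, and genotype and position, cannot be told apart. In RNA of a cell pool, fewer cells of a type and less RNA per cell cannot be told apart either. By its brighter probe Mef2c was higher on the arrays labelled KO (differences of 0.32 in marrow and 1.36 in spleen). A dimmer probe was higher on KO in marrow (0.36) and lower in spleen (-0.61, signals of 128 on KO and 364 on WT). A probe outside the deleted part checks nothing, and every direction for KO below rests on the labels.

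Well above background, by the scanner software's own mark, were 29 (KO) and 30 (WT) of the 32 genes in marrow and 27 (KO) and 30 (WT) in spleen. In all, 27 genes were well above background on all 4 arrays, 4 on 1 to 3 arrays and 1, Ctla4, on none. The share was 84.4% to 93.8% for these genes and 60.4% to 72.7% for all genes. B cell markers were well above background for 12 of 12 genes on every array, among them Cd79a and Pax5, so the labelled cell type was present on each.

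**Figure D1:**
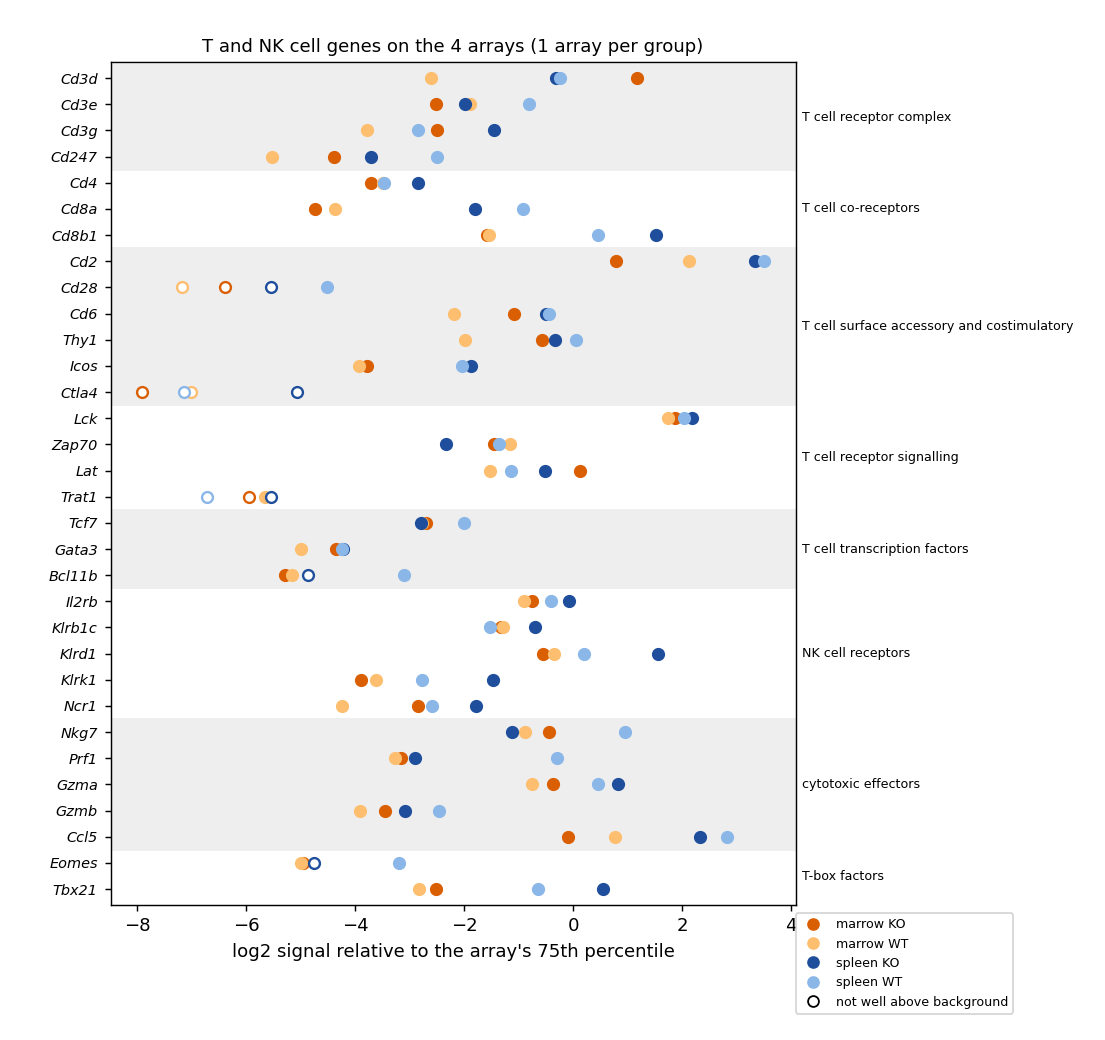
Level of each gene (log2 signal relative to the array's 75th percentile, x axis) on the 4 arrays, 1 point per array, with open points where the probe was not well above background. Points are to be compared along a row only; Cd3d on marrow KO (1.17) lies apart from its other 3 arrays, and most rows have both spleen arrays on the right.

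A gene counted as measured in a comparison when it was well above background on either or both arrays. A gene above background on just 1 of them has a lower bound in place of a difference. Where that bound did not reach above 0 the gene has no value, though it still counts as measured (Bcl11b and Eomes between the KO tissues, Trat1 between the WT tissues). Between the marrow arrays 30 genes were measured, and 7 (23.3%) were at least 2-fold higher on KO, where 8.42% of all 20900 measured genes were. These were Cd3d, Lat, Thy1, Ncr1, Cd3g, Cd247 and Cd6. Only Cd2 was at least 2-fold lower (3.33% of the genes, 4.84% of all genes), and the median difference was 0.13 against -0.05 over all genes. Between the spleen arrays 30 genes were measured, with 5 (16.7%) at least 2-fold higher on KO and 6 (20%) lower, where 19.8% and 14.3% of all 19478 measured genes were. Both shares lie near those of all genes, and the median was 0.02 against 0.27 over all genes. Scaling by the median signal in place of the 75th percentile moved that all-gene median to 0.70 and the split of these genes to 9 higher and 4 lower. It also moved the share of higher genes among all those 2-fold apart in the spleen from 58.1% to 80.2%.

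**Figure D2:**
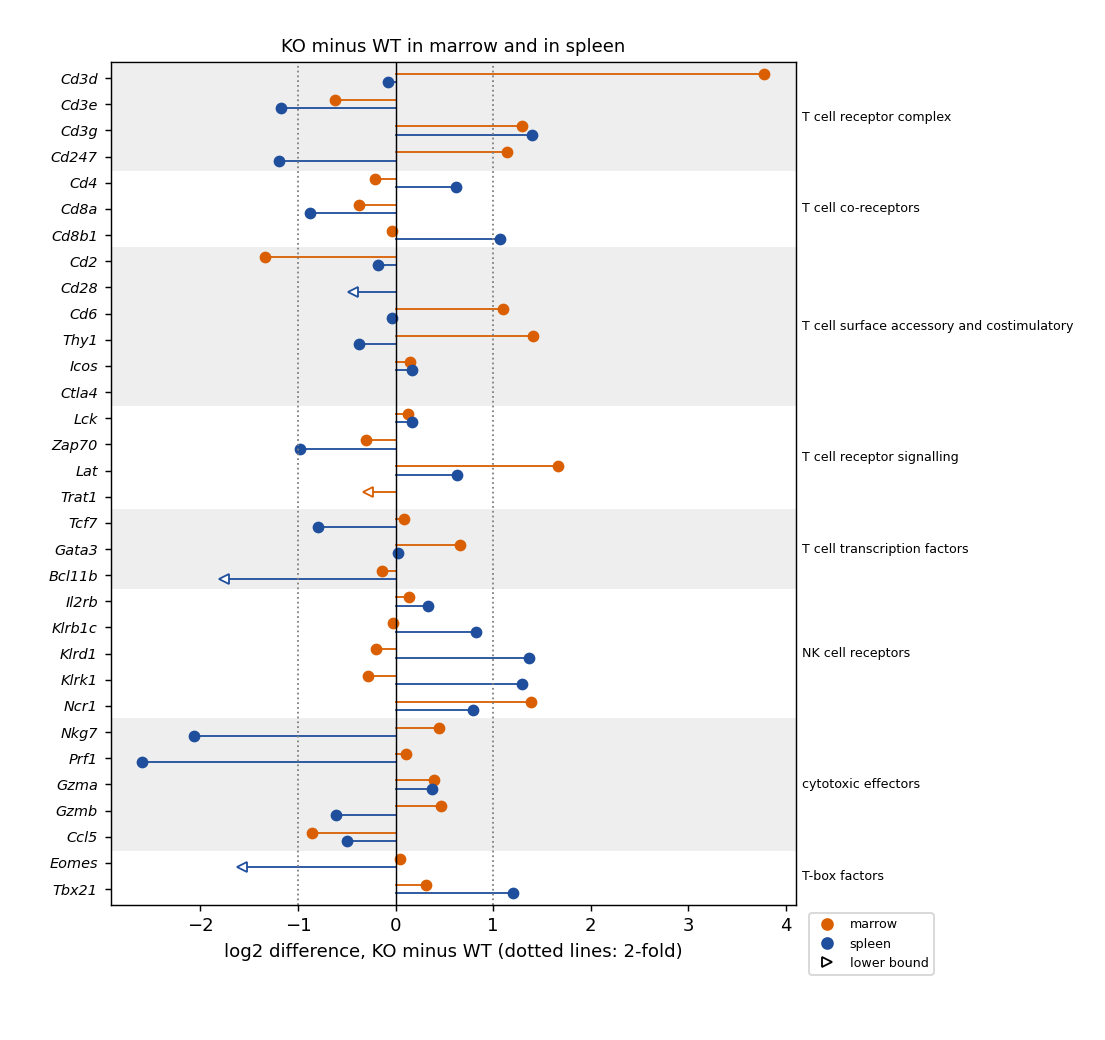
Difference of each gene between KO and WT (log2, x axis) in marrow and in spleen, with 1 array per group and open triangles for lower bounds. Cd3d in marrow (3.78) and Prf1 in spleen (-2.60) lie farthest from 0, and 14 of the 27 genes well above background on all 4 arrays have the same sign in both tissues.

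Between the WT arrays 31 genes were measured, with 19 (61.3%) at least 2-fold higher in spleen and 0 lower. Among all 21098 measured genes 15.3% were higher and 15.7% lower, and the median was 1.45 for these genes against -0.07. Between the KO arrays 29 genes were measured, with 11 (37.9%) at least 2-fold higher in spleen and 1, Cd3d, lower. All 20005 measured genes had 15.6% higher and 14% lower, and the medians were 0.69 and 0.19. The WT and KO pairs share no array. Of 29 genes measured in each pair, 8 (27.6%) were higher in spleen by at least 2-fold each time, against 6.04% of all 19397 genes. These were Cd8a, Cd8b1, Cd2, Icos, Ncr1, Gzma, Ccl5 and Tbx21.

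**Figure D3:**
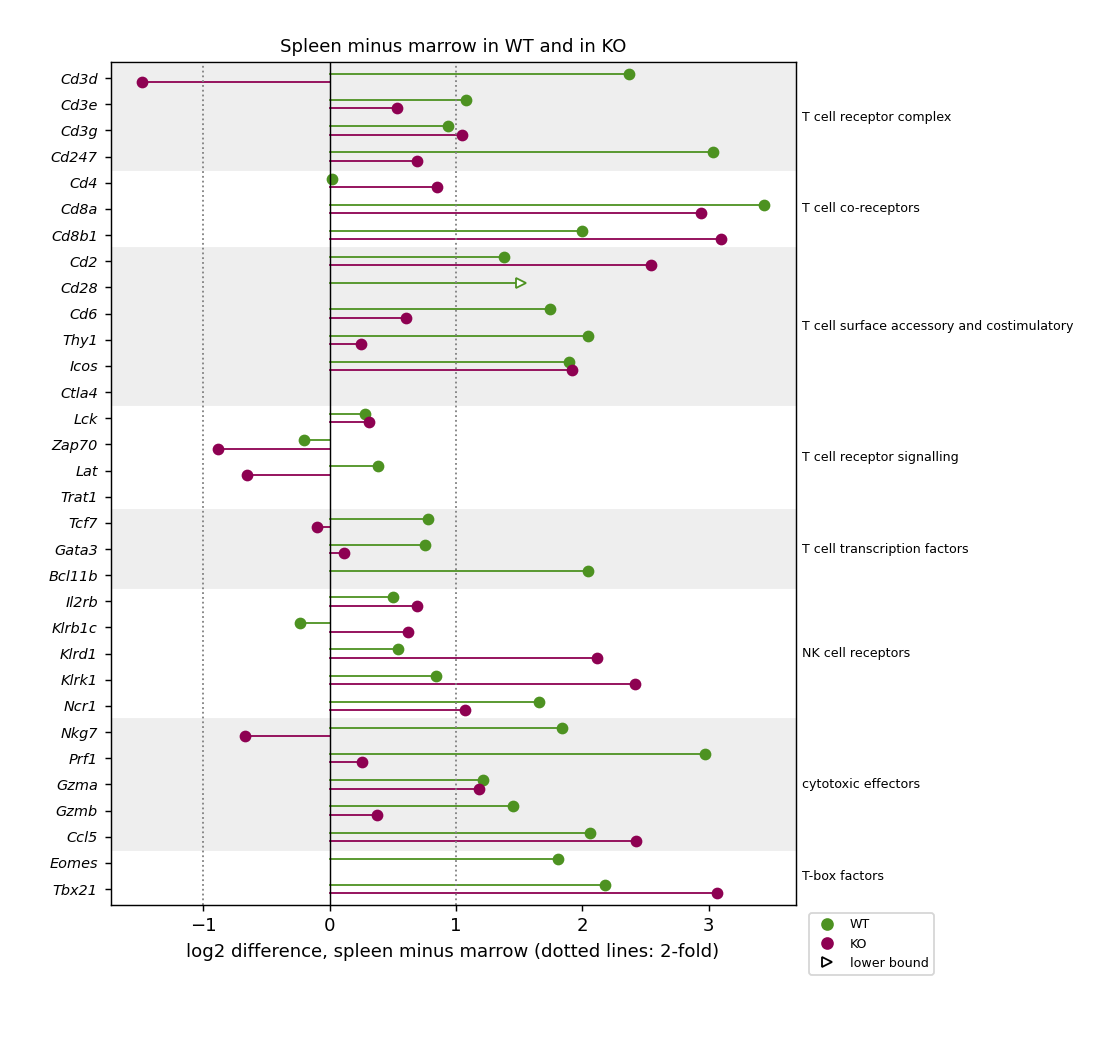
Difference of each gene between spleen and marrow (log2, x axis) in WT and in KO, with 1 array per group and an open triangle for the lower bound of Cd28. In WT 19 genes reach the upper 2-fold line and 0 the lower one, and in KO Cd3d (-1.49) lies below the lower one.

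The chains of the T cell receptor complex did not share a direction. Cd3d, which encodes the delta chain of CD3, had levels of 1.17 (KO) and -2.61 (WT) in marrow and -0.31 (KO) and -0.24 (WT) in spleen. It was thus 13.7-fold higher on KO in marrow (signals of 2284 and 159), while the spleen arrays differed by -0.07 and lay between the marrow arrays. Cd3e, the epsilon chain needed for assembly of the complex, had levels of -2.52, -1.90, -1.99 and -0.82 in the same order, with spleen WT alone high. Its difference was -0.62 in marrow and -1.17 in spleen, the opposite side of 0 from Cd3d in marrow. Cd3g, the gamma chain, was at -2.49, -3.79, -1.45 and -2.85, with each KO array above the WT array of its tissue. By 1.29 in marrow and 1.40 in spleen, it was the only one of 29 genes measured in both tissues that was at least 2-fold higher on KO in both (3.45%, against 2.37% of all 18672 genes). Cd3g lost the marrow call with normexp (0.86), while Ncr1 passed in both tissues with median scaling, quantile normalization and cyclic loess, and Lat with median scaling. In the mouse genome Cd3g, Cd3d and Cd3e follow each other on chromosome 9 with 0 protein-coding genes between them, by RefSeq's annotation of build GRCm38.p6.

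Cd247, the zeta chain, had levels of -4.39 (KO) and -5.54 (WT) in marrow and -3.70 (KO) and -2.51 (WT) in spleen by its brightest probe. KO was the higher array in marrow, by 1.14, and the lower one in spleen, by -1.20. The intron-crossing probe printed above gave -0.62 and -0.34, so the marrow difference has the opposite sign on it, and both other probes of the gene were above background on no array. The tissue difference of WT likewise was 3.03 by the brightest probe and 0.19 by the intron-crossing one.

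Among the co-receptors, which hold MHC molecules and bring Lck to the receptor, both CD8 chains were higher in spleen by their brightest probes. Cd8a, the alpha chain, was at -4.74 (KO) and -4.36 (WT) in marrow and -1.80 (KO) and -0.92 (WT) in spleen. Cd8b1, the beta chain, was at -1.58, -1.54, 1.52 and 0.45, so that for each chain both spleen arrays lay above both marrow arrays. The differences between spleen and marrow were 3.44 in WT and 2.94 in KO for Cd8a, and 2.0 and 3.1 for Cd8b1. A second Cd8a probe with 10 spots gave 1.33 and 2.08 for the same tissue comparisons, the same direction with smaller values. Between KO and WT in spleen the brightest Cd8a probe gave -0.88 and the probe with 10 spots 0.77, so the direction there depends on the probe. Cd4, the co-receptor of helper T cells, had levels of -3.70, -3.49, -2.85 and -3.47, with spleen KO the highest. Its 7 to 10 kept spots per array had SDs between 0.155 and 0.230 on the log2 scale, against differences of -0.21 in marrow and 0.62 in spleen. The spleen difference passed 2-fold with median scaling (1.05), quantile normalization (1.03) and cyclic loess (1.04). A dimmer Cd4 probe was well above background on both WT arrays (signals of 20.7 in marrow and 23.1 in spleen) and on neither KO array (4.06 and 4.19). The median over both probes was -1.31 in marrow and -0.47 in spleen. It takes in the KO values that were not well above background, so its sign in spleen is not a measured direction.

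Of the 6 other T cell surface genes, Cd2, an adhesion receptor, was the one lower on marrow KO. It had levels of 0.79 (KO) and 2.13 (WT) in marrow and 3.33 (KO) and 3.51 (WT) in spleen, hence -1.34 in marrow and -0.18 in spleen, with both spleen arrays above both marrow arrays. Thy1, a surface glycoprotein of mouse T cells and progenitors, was at -0.58, -1.99, -0.33 and 0.05, with marrow WT alone low and a marrow difference of 1.41. Its intron-crossing probe gave 0.06 in marrow. Cd6, a receptor that tunes T cell activation, was at -1.09, -2.19, -0.49 and -0.45, a marrow difference of 1.1 by the brightest probe and -0.26 by the intron-crossing one. For Cd247, Thy1 and Cd6 alike the marrow difference was at least 2-fold by the brightest probe and not by the intron-crossing probe. The intron-crossing probes were dim, with marrow signals of 36.1 (KO) and 33.0 (WT) for Thy1 and 71.6 and 81.8 for Cd6. By the brightest probe these were 677 and 243 for Thy1 and 474 and 211 for Cd6. Cd247 was dim by both, at 26.4 and 38.7 by the intron-crossing probe and 48.1 and 20.8 by the brightest.

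Icos, the inducible costimulator, was at -3.78 (KO) and -3.93 (WT) in marrow and -1.87 (KO) and -2.03 (WT) in spleen, so that genotypes lay 0.14 and 0.16 apart and tissues 1.89 (WT) and 1.91 (KO). Its other probe gave 0.99 and 1.24 for the tissues. Cd28, the main costimulatory receptor of T cells, was well above background on spleen WT only, where it was at least 1.35-fold higher than on spleen KO and at least 2.86-fold higher than on marrow WT. All 10 of its spots were well above background on that array, against 1 of 10 on marrow KO and 0 on the other arrays. Ctla4, the inhibitory counterpart of Cd28, was not well above background on any array, and Cd28, Ctla4 and Icos are direct neighbours on chromosome 1.

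**Figure D4:**
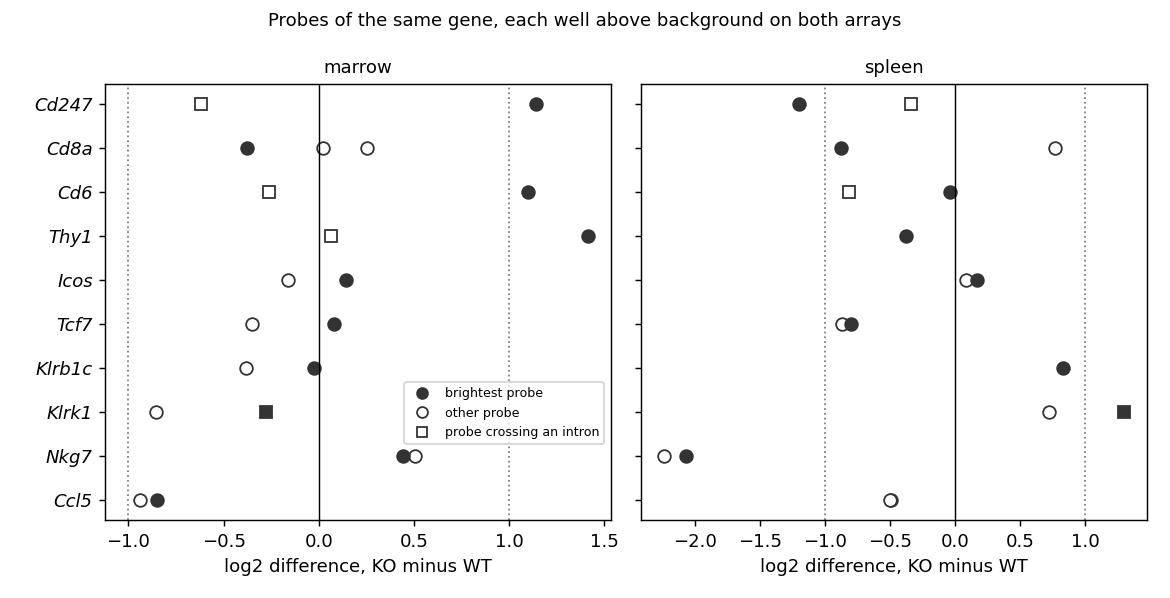
Differences between KO and WT (log2, x axis) in marrow and spleen by each probe well above background on both arrays, for the 10 genes with at least 2 such probes in marrow; filled symbols are the brightest probe and squares probes that cross an intron. For Cd247, Cd6 and Thy1 the marrow values lie over 2-fold apart, and for Nkg7 and Ccl5 the probes nearly coincide.

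For 3 of the 10 genes with at least 2 measured probes in marrow (Cd247, Cd6 and Thy1) the probes lay over 2-fold apart, against 12.6% of 6162 such genes on the array. In spleen it was 1 of 8 (Cd8a), against 49.5% of 5248 genes. Which probe reports the transcript of the cells in question was not tested. With the median over the probes of a gene, marrow KO had 4 genes higher (Cd3d, Cd3g, Lat and Ncr1) and 2 lower (Cd2 and Cd4) by at least 2-fold. The Cd4 call takes in its dimmer probe, which was not well above background on marrow KO, and the brightest Cd4 probe differed by -0.21. With normexp background correction 3 were higher (Cd3d, Lat and Thy1).

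Of the 4 signalling genes, Lat alone was 2-fold apart in marrow, and 0 were in spleen. Lck, the kinase that starts receptor signalling and is also made by some B cells, had levels of 1.88 (KO) and 1.75 (WT) in marrow and 2.19 (KO) and 2.03 (WT) in spleen, and its 4 differences ranged from 0.13 to 0.31. Lat, the membrane adaptor downstream of ZAP-70, was at 0.13, -1.53, -0.52 and -1.15, with marrow KO the highest array. It was 1.66 higher on KO in marrow, and 0.63 in spleen. Zap70, the kinase that docks on phosphorylated CD3 and zeta chains, was at -1.46, -1.16, -2.34 and -1.36, with spleen KO alone low and a spleen difference of -0.98. Trat1, an adaptor of the T cell receptor, was well above background on marrow WT only, by a probe placed over 24 bases of the genome. The other probe of Trat1, which has the higher mean by linear signal, was well above background on both spleen arrays, with a difference of 0.57 for KO minus WT, and on neither marrow array.

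Of the T cell transcription factors, Tcf7, which encodes TCF-1 and sets T cell fate in the thymus, had levels of -2.70, -2.78, -2.80 and -2.0, with spleen WT alone high. Both of its probes gave similar spleen differences, -0.80 and -0.87. Gata3, a factor of early T cells and type 2 helper cells, was at -4.34, -5.0, -4.23 and -4.25, with marrow WT the low array and differences of 0.66 and 0.02. Bcl11b, which holds cells to the T lineage, was at -5.29, -5.15 and -3.11 on marrow KO, marrow WT and spleen WT and not well above background on spleen KO. It was at least 3.38-fold lower on spleen KO than on spleen WT, a bound that depends on the background treatment and was 1.29-fold with normexp and 2.52-fold with median scaling, and 2.04 higher in spleen than in marrow of WT.

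Of the 5 NK cell receptor genes, Ncr1 alone was 2-fold apart in marrow, and all 5 had a higher value on KO in spleen. Klrb1c turned sign with the median over its probes, which takes in a probe not well above background on spleen KO. Klrd1, which encodes CD94, the partner chain of NKG2 receptors, was at -0.55 (KO) and -0.35 (WT) in marrow and 1.56 (KO) and 0.19 (WT) in spleen. Klrk1, the activating receptor NKG2D, was at -3.89, -3.61, -1.47 and -2.77, so that for both genes spleen KO was the highest array. Their spleen differences were 1.37 and 1.29, and the second Klrk1 probe gave 0.72. Both lie side by side on chromosome 6. Ncr1, which encodes the activating receptor NKp46, was at -2.85, -4.24, -1.79 and -2.58, with marrow WT alone low and differences of 1.38 in marrow and 0.80 in spleen. Klrb1c, the NK1.1 antigen of C57BL/6 mice, lay between -1.53 and -0.70 on the 4 arrays, and Il2rb, the beta chain of the interleukin 2 and 15 receptors, between -0.90 and -0.07. Their spleen differences of 0.82 and 0.33 stand beside an all-gene median of 0.27, and their marrow differences were -0.02 and 0.14.

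The cytotoxic effector genes split in the spleen. Prf1, which encodes perforin, the pore protein of killer cells, had levels of -3.16 (KO) and -3.28 (WT) in marrow and -2.91 (KO) and -0.30 (WT) in spleen. Nkg7, a granule membrane protein, was at -0.45, -0.89, -1.12 and 0.95, and for both genes spleen WT stood above the other 3 arrays. Prf1 was 6.07-fold lower on KO in spleen (-2.60, signals of 69.9 and 788), and Nkg7 differed by -2.07 on one probe and -2.24 on the other. In marrow the differences were 0.11 for Prf1 and 0.44 for Nkg7. With normexp background correction these were the 2 genes left at least 2-fold lower on spleen KO, and Prf1 was then 3.49-fold lower. Gzma, which encodes granzyme A, was at -0.36, -0.76, 0.82 and 0.46, with both spleen arrays above both marrow arrays and differences of 0.39 and 0.37 between the genotypes. Gzmb, granzyme B, was at -3.45, -3.92, -3.08 and -2.46, a difference of 0.46 in marrow and -0.62 in spleen. Ccl5, a chemokine of cytotoxic cells, was at -0.09, 0.76, 2.33 and 2.83, lower on KO in each tissue by less than 2-fold (-0.85 and -0.49). The spleen value depended on the scaling, at -1.004 with quantile normalization and -0.07 with median scaling. The second Ccl5 probe gave -0.94 and -0.50, and tissue differences of 2.65 in WT and 3.09 in KO beside 2.06 and 2.42 by the brightest.

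The T-box factors had opposite directions in spleen. Tbx21, which encodes T-bet, was at -2.51 (KO) and -2.82 (WT) in marrow and 0.55 (KO) and -0.65 (WT) in spleen, with both spleen arrays above both marrow arrays. It was 1.20 higher on KO in spleen and 0.31 in marrow. Eomes, its relative in NK cells and memory CD8 T cells, was at -4.95, -4.99 and -3.19 on marrow KO, marrow WT and spleen WT. On spleen KO Eomes was not well above background, and it was at least 2.98-fold lower there than on spleen WT, a bound of 1.18-fold with normexp, with 0.04 between the marrow arrays.

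**Figure D5:**
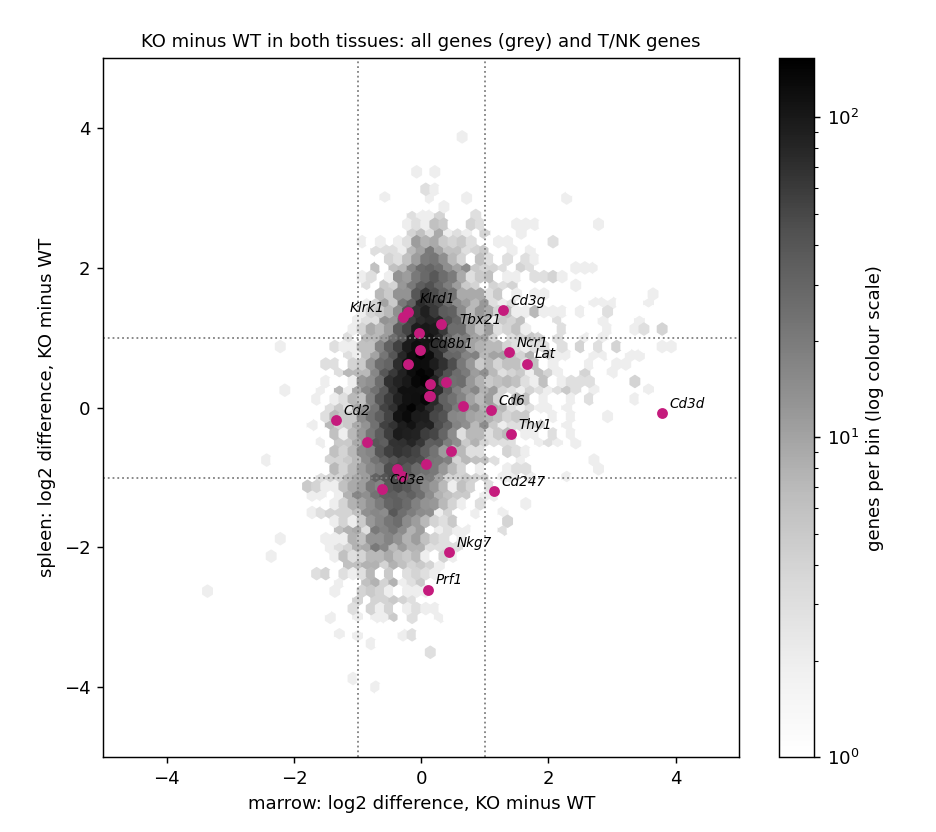
Difference between KO and WT (log2) in marrow (x axis) against spleen (y axis) for all genes well above background on all 4 arrays (grey bins, darker for more genes on a log scale) and for 27 of the 32 genes (points, named where a difference reached 2-fold). Cd3g lies in the upper right field, Cd247 in the lower right one and Cd3d far to the right at a spleen difference of -0.07.

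Over both tissues the genotype differences had the same sign for 14 of the 27 genes well above background on all 4 arrays, and for 10060 of all 16267 such genes. Of the 29 genes with a value in both tissues, 0 were lower on KO by at least 2-fold in each (2.02% of all 18672 genes), and 1, Cd247, was 2-fold apart in opposite directions, higher in marrow and lower in spleen, as were 77 of all genes. Both tissues were tested together with limma on the 4 arrays, in a fit of tissue and genotype over 21706 genes with Benjamini-Hochberg adjustment. This leaves 1 residual degree of freedom, which is how far the genotype difference of a gene departs between the tissues, with the variance moderated over genes. With 1 array per group, the SEs and p-values below do not measure the spread between mice or between repeated arrays. For genotype 0 of 31 genes tested passed an adjusted p of 0.05, as did 2 of all 21706 genes (0.00921%), and at an unadjusted p under 0.05 there was 1, Cd3g, where 10.7% of all genes were. Cd3g had a common difference of 1.34 with an SE of 0.519 (limma adjusted p = 0.41), and was higher on KO in 2 of 2 tissues. Cd3d had one of 1.85 with an SE of 0.838 (limma adjusted p = 0.485), and passed in 2 of 8 alternative settings, with adjusted p-values from 0.00955 to 0.56 over them. The tissues did not share this difference of Cd3d, which was 3.78 in marrow and -0.07 in spleen. No residual degree of freedom is left to ask whether the genotype difference of a gene differs between the tissues, which was not tested.

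For tissue 4 of 31 genes passed, all higher in spleen. Among all genes 7.28% passed in either direction, 530 higher and 1051 lower in spleen. Cd8a differed by 3.19 with an SE of 0.525 (limma adjusted p = 0.00915), Tbx21 by 2.62 with an SE of 0.540 (0.0226), Cd8b1 by 2.55 with an SE of 0.551 (0.0273) and Ccl5 by 2.24 with an SE of 0.522 (0.0367). Each was higher in spleen in 2 of 2 genotypes by its brightest probe. Over 8 alternative settings Tbx21 passed in 8 and the other 3 genes in 7 each, with adjusted p-values of up to 0.0701 for Cd8a, 0.053 for Cd8b1 and 0.0545 for Ccl5. The next genes, Icos at 1.90 and Cd2 at 1.96, missed the threshold with limma adjusted p-values of 0.0667 and 0.0772. At an unadjusted p under 0.05 there were 12 of 31, all higher in spleen, where 20% of all genes were under it in either direction.

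Of 41 further T cell gene names 35 were found on the array, for 34 genes. Of 32 measured, 8 (25%) were higher on marrow KO by at least 2-fold and 1 (3.1%) was lower, against 8.42% and 4.84% of all genes. Their median was 0.32. The values farthest from 0 were those of Ly6c2 (2.88), a surface antigen of memory T cells and monocytes, Lcp2 (2.38), the adaptor SLP-76, Cd5 (1.95), an inhibitory receptor of T cells and B-1 cells, and Pdcd1 (1.60), the inhibitory receptor PD-1. In spleen 3 of 31 (9.68%) were higher on KO and 3 (9.68%) lower, below the 19.8% and 14.3% of all genes. They were led by Ms4a6b (2.04), a membrane protein of the CD20 family, and Cd96 (-1.57), a receptor of T and NK cells. In WT 16 of 33 (48.5%) were higher in spleen, against 15.3% of all genes, and 5 (15.2%) were lower, near the 15.7% of all genes. The lower ones included Il7r (-6.54), Lef1 (-3.66) and Il2ra (-3.41), all 3 also made by B cell precursors of the marrow.

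Of 40 further NK and cytotoxic names 38 were on the array. On marrow KO 8 of 32 measured (25%) were higher by at least 2-fold and 4 (12.5%) were lower, against 8.42% and 4.84% of all genes. Their median was 0.09. Farthest from 0 were Fcgr3 (3.04), an Fc receptor, Il18rap (2.79), a chain of the interleukin 18 receptor, and Tyrobp (2.50) and Hcst (2.33), the adaptors DAP12 and DAP10 of activating receptors. Fcgr3, Tyrobp and Hcst are also made by myeloid cells. In spleen 4 of 32 (12.5%) were higher and 2 (6.25%) lower on KO, below the 19.8% and 14.3% of all genes. Slamf7, a receptor of NK and plasma cells, was at -3.25, and Cd244, the receptor 2B4, at 2.41. In WT 15 of 33 (45.5%) were higher in spleen and 0 lower, against 15.3% and 15.7% of all genes. Among them were Hcst at 3.05 and Xcl1, a chemokine of NK and CD8 T cells, at 2.32.

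Markers of other cells moved with the same comparisons, for which the shares of all genes are given above. In marrow, 13 of 14 neutrophil markers were at least 2-fold higher on KO, and their summed level (linear signals over the array's 75th percentile) was 1524 on KO and 441 on WT. Platelet markers were higher for 4 of 7, with sums of 23.6 and 9.07, and B cell markers lower for 5 of 12, with sums of 851 and 1047. In spleen, 5 of 6 erythroid markers were higher on KO (sums of 166 and 24.7), 8 of 14 macrophage and monocyte markers (145 and 57.1) and 7 of 13 neutrophil markers (145 and 11.6). Of the macrophage and monocyte markers 1 was lower on KO, and of the neutrophil markers 1. B cell markers there had 3 higher and 5 lower of 12, with sums of 1997 (KO) and 1460 (WT), and plasma cell markers 3 of 6 lower. Between spleen and marrow, neutrophil markers were lower in spleen for 13 of 14 in WT and 14 of 14 in KO, and platelet markers for 6 and 5 of 7. Macrophage and monocyte markers were higher in spleen for 9 of 14 in each genotype, and lower for 1 in WT and 2 in KO. B cell markers were higher for 2 of 12 in WT and 6 of 12 in KO, and lower for 1 in each. Plasmacytoid dendritic cell markers had 1 higher and 1 lower of 12 in marrow, and 3 and 3 in spleen. The part of these cells in the differences above was not tested. The innate lymphoid cell markers Areg, Il5 and Il23r were not well above background on any array. The T and NK genes themselves summed to 16.2 (KO) and 15.4 (WT) in marrow and to 36.6 (KO) and 37.2 (WT) in spleen, so both spleen sums lay above both marrow sums, with the brightest probes weighing most.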

How the data were processed

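RNA of 4 samples was labelled with Cy3, per the labels, and hybridised to 1 array each. The deposited scanner files hold background-corrected intensity values, which the authors made with Agilent Feature Extraction 10.5.1.1 on probes placed on build mm9, per the file headers; no scaling between arrays is recorded there. At all 45018 spots the deposited series matrix repeats these intensity values. Of 43379 gene spots, 72 to 85 per array were left out for an outlier mark, and 0 were saturated. From each log2 signal the 75th percentile of its array was subtracted, and a probe's spots were then averaged. Of 27825 genes, by the file's names, 8873 had several probes and were represented by the brightest. For a probe above background on 1 array only, the bound uses its own dim value or the array's lowest value well above background, whichever is higher. All 32 listed genes are named, and from the other lists at most 4 per list and comparison, those farthest from 0 among genes well above background on both arrays. The members and lists were chosen with earlier results of these data known. Tests used limma 3.58.1 in R 4.3.3. Its recovery of known changes was tested on simulated data with the same spread for every gene and large changes shared by both tissues. That simulation cannot show how the fit treats smaller changes or changes in 1 tissue only. Alternatives were median scaling, quantile normalization, cyclic loess, normexp background correction, other filters on dim probes, other choices of probe and names through the reference table. The lists' 6 and 2 names not found are not analysed here, and 0 columns belonged to no sample.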

Additional observations from a re-analysis of the deposited data

Results flagged for a closer look

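Cd247, the zeta chain, was 2-fold or more apart between KO and WT in opposite directions in the 2 tissues: 1.14 in marrow and -1.20 in spleen by its brightest probe. The difference between the tissues was not tested, since each group has 1 array, and the intron-crossing probe of the gene gave -0.62 and -0.34.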

How the results depend on the processing

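No paired analysis was possible because each group has 1 array and so no replicate numbers to pair, although the limma fit itself compares KO with WT within each tissue. Leaving out an array leaves no residual degree of freedom. Of 50 member differences of at least 2-fold, all 426 values under the alternatives kept their sign. Of these values 397 stayed at least 2-fold, and 33 of the 50 differences did so under every alternative run. Many of these values could hardly change, since other filters, names and choices of probe mostly repeat the main value and 17 genes have 1 probe. Taking the dimmer probe of a gene alone was not an alternative, and by it Cd247 (-0.62) and Cd6 (-0.26) changed sign in marrow. Median scaling gave 9 members higher on spleen KO and medians of 0.45 between the spleen arrays and 0.92 between the KO tissues. Normexp gave 3 members higher on marrow KO, 2 lower on spleen KO and a WT tissue median of 0.99. The median over probes gave 4 higher and 2 lower on marrow KO, with Cd4 lower only by taking in a probe not well above background there. Without a background filter 1 member was lower in WT spleen. For genotype limma passed 1 member, Cd3d, with normexp and likewise 1, Cd3d, with only genes well above background on all 4 arrays. For tissue it passed 2 with cyclic loess, 7 with normexp, 9 with genes well above background on all 4 arrays and 7 without a filter, where all genes went from 1581 to 1084, 2320, 2025 and 2679. The tissue direction of Trat1 was reversed, with limma adjusted p-values of 0.737 (normexp), 0.241 (median over probes) and 0.0186 (brightest probe by linear signal, which takes its other probe). The cause was not tested. Over all genes limma's genotype calls went from 2 to 0 with cyclic loess, 438 with median scaling, 626 with normexp, 450 with all 4 arrays above background and 586 without a filter. The share of higher genes among all those 2-fold apart moved from 63.5% to 75.3% in marrow with cyclic loess or normexp and to 52.5% without a filter. In spleen it moved from 58.1% to 70.1% with normexp and 46.7% with the median over probes, and between tissues from 49.3% to 38.4% in WT and from 52.7% to 65.1% in KO with median scaling. Choosing probes without the spleen KO array, an alternative added after seeing the data, left the counts at 7 and 1 in marrow and 19 and 0 between the WT tissues. Dim signals on spleen KO limit the comparisons of Cd28, Bcl11b and Eomes.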
